A study of Rattus norvegicus with 10 samples.

Results

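The transcripts F5, F10 and Emilin2, 3 of the 32883 gene identifiers counted, were followed through 10 RNA-sequencing libraries of CD11b+ cells. They were chosen because the study used them, with Gda and Mki67, as signature genes of peripheral monocytes and macrophages, which enter the brain after intracerebral hemorrhage (ICH), a bleed into the brain tissue. Each was read beside P2ry12, a marker of resident microglia, and Apoe, a gene of activated phagocytes. CD11b is an integrin chain carried by microglia, monocytes, macrophages and neutrophils, so magnetic selection for it takes resident and infiltrating cells together. The donors were male Sprague-Dawley (SD) rats, 12 weeks old by the methods, and cells were taken from the hemorrhagic striatum on day 3 after ICH. Both groups were subjected to ICH, and 1 h later received a single intracerebroventricular injection of saline (ICH + Saline, 5 libraries) or of recombinant human cerebral dopamine neurotrophic factor, a protein resident in the endoplasmic reticulum (ICH + rhCDNF, 5 libraries). Rats without ICH were not analysed here, and whether the sequenced rats bled after collagenase or after autologous blood was not given in the sources used here. The study defines its n as a number of animals, while the labels do not tie a library to a rat, and p-values measure the spread between these libraries.

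Factor V (F5) is the cofactor and factor X (F10), once cleaved to factor Xa, the protease of prothrombinase, the complex that turns prothrombin into thrombin. The liver secretes most of both proteins, and macrophages can also express them. Emilin2 encodes an elastin microfibril interface-located protein, a glycoprotein of the extracellular matrix. Microglia settle in the brain during development and lose part of their resting programme, P2ry12 included, when they are activated, whereas monocytes come from the blood and become macrophages at the lesion. In RNA from a bulk selection, fewer cells of a type and less RNA per cell cannot be told apart.

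The count table gives identifiers without gene names. Each name used here belongs to the identifier whose profile over the 10 libraries best followed that gene in the study's own expression table. For F5 (ENSRNOG00000057855) the next best identifier was 3.93 times as far away, for Emilin2 (ENSRNOG00000014837) it was 1.96 times and for F10 (ENSRNOG00000033444) 2.05 times. The names therefore rest on profiles and not on a name table, and a gene absent from the part of the table used could follow the same profile. In the RefSeq annotation of the GRCr8 build, F5 overlaps the long noncoding gene LOC134481524 and F10 the pseudogene LOC134482530, while no gene was listed over Emilin2. Of the reference genes, P2ry12 overlaps the protein-coding gene Med12l, and no gene was listed over Apoe. The kit marked strand, but the strand setting of the counting was not given in the sources used here, so reads of overlapping genes may be mixed.

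The 3 genes lie on different chromosomes, 13, 16 and 9. The 250 bases before each start site are shown because they are the stretch in which the genes can be compared by sequence. They come from RefSeq on GRCr8, and capitals mark the only matches to the 3 motifs searched on both strands. These were GAGGAAG, bound by the myeloid factor PU.1, the interferon-stimulated response element (GAAA, any 2 bases, GAAA), and TGANTCA, bound by AP-1, all chosen after values had been seen. The F5 window is chr13:79046407-79046656 on the plus strand, the F10 window chr16:83190281-83190530 on the minus strand, and the Emilin2 window, the outermost of 2 listed, chr9:118667088-118667337 on the minus strand.
F5: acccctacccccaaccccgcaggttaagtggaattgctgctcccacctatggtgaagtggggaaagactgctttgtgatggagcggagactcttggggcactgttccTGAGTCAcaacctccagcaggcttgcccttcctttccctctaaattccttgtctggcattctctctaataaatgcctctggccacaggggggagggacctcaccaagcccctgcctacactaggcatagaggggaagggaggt
F10: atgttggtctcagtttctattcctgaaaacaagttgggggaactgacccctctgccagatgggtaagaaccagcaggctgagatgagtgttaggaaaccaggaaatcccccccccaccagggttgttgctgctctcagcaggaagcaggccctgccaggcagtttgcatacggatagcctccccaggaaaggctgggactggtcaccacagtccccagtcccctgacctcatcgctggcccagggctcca
Emilin2: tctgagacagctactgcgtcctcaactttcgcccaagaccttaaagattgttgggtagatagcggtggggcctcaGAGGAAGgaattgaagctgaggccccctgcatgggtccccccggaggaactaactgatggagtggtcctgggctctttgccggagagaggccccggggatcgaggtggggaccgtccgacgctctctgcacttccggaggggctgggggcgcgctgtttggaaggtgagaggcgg
F5 held 1 AP-1 match, TGAGTCA, 143 to 137 bases before the start, a motif present in 6.34% of the 33469 windows of the same length. Emilin2 held 1 PU.1 match, GAGGAAG, 175 to 169 bases before the start, present in 10.2% of windows. F10 held none of the 3 motifs, and the interferon-stimulated response element, present in 3.41% of windows, was in none of these windows. These matches describe letters only.

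Library totals lay between 14376582 and 16784638 counts, so depth was similar in both groups. Values are CPM, counts scaled to 1 common library size with the trimmed mean of M values (TMM), and are compared between libraries within a gene, since levels of different genes were not set against each other per length. Libraries are lettered in the order of their numbers in the count table, A to E for saline and G, H, J, K and L for rhCDNF, of which library G stood apart. It held the highest or the lowest value in 5280 of the 12199 genes tested (43.3%), against 10.9 to 23.0% for each of the other 9 libraries. Fold changes, list medians and correlations are also given without it. All 3 markers, P2ry12 and Apoe passed edgeR's filter on low counts.

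F5 had a lower mean after rhCDNF, with overlapping groups. It measured 207, 209, 215, 168 and 138 CPM in saline libraries A to E, and 80.7, 129, 165, 149 and 181 CPM in rhCDNF libraries G, H, J, K and L. All 5 rhCDNF libraries lay below the saline mean, but only G and H lay below every saline library. The means were 187 ± 33.4 CPM (SD, n = 5) for saline and 141 ± 38.8 CPM (SD, n = 5) for rhCDNF, a log2 fold change of -0.41 (SE 0.192). This did not pass the threshold of 0.05 in edgeR's quasi-likelihood test (p = 0.0539, Benjamini-Hochberg adjusted p = 0.406 over all genes) or in a two-sided exact permutation test (p = 0.0952). Without library G the log2 fold change was -0.26 (SE 0.134, edgeR adjusted p = 0.637).

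F10 was the one marker whose mean was higher after rhCDNF, and that mean rested on G. It measured 9.37, 15.1, 12.02, 11.2 and 12.9 CPM in the saline libraries, and 39.7, 14.1, 9.89, 21.9 and 8.61 CPM in the rhCDNF libraries, in the same order as for F5. Libraries G and K exceeded every saline library, whereas L was the lowest of all 10, so the rhCDNF group spanned the saline group on both sides. F10 was the most thinly covered of the markers, from 123 counts (95% Poisson interval 102 to 147) in L to 678 counts (628 to 731) in G, and K held 331 counts (296 to 369). These intervals cover counting error only, and those of G and K did not overlap. The means were 12.1 ± 2.12 CPM (SD, n = 5) and 18.8 ± 12.8 CPM (SD, n = 5), and the log2 fold change was 0.65 (SE 0.361, edgeR p = 0.0993, adjusted p = 0.475), with an exact permutation p of 0.381. Without G the log2 fold change was 0.17 (SE 0.239, adjusted p = 0.863 by edgeR).

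Emilin2 was the steadiest marker in the saline group. It measured 292, 261, 283, 258 and 308 CPM there, and 131, 260.0, 295, 249 and 251 CPM in the rhCDNF libraries. The rhCDNF libraries H to L lay between 249 and 295 CPM, next to or inside the saline range, and G lay far below. The means were 280 ± 21.1 CPM (SD, n = 5) and 237 ± 62.0 CPM (SD, n = 5), a log2 fold change of -0.24 (SE 0.167, edgeR p = 0.176, adjusted p = 0.546), with an exact permutation p of 0.143. Without G it was -0.09 (SE 0.0705, edgeR adjusted p = 0.756).

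**Figure D1:**
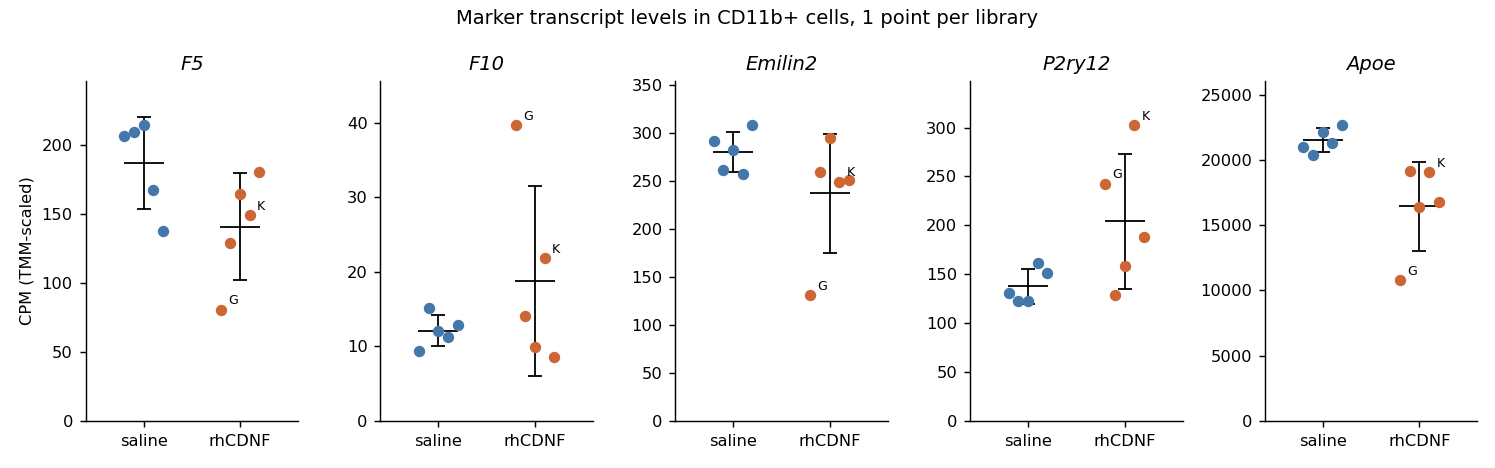
Levels of F5, F10, Emilin2, P2ry12 and Apoe in CPM, on separate axes that start at 0, with 1 point per library (blue, ICH + Saline; orange, ICH + rhCDNF) and the mean with its SD in black. Library G is the lowest for F5 (80.7 CPM), Emilin2 (131 CPM) and Apoe, and the highest for F10 (39.7 CPM).

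None of the 3 markers was called at an adjusted p under 0.05, in a comparison in which edgeR called 0% of 12199 genes. At an unadjusted edgeR p under 0.05, 12.4% of all genes passed, 841 with a higher and 670 with a lower level after rhCDNF, and none of the 3 markers was among them. DESeq2, run on the same genes, called 7 genes and gave 1495 an unadjusted p under 0.05. It gave F5 a p of 0.0353 and an adjusted p of 0.365. The median log2 fold change over all genes was 0.00 and the median of its size 0.10, against -0.41, 0.65 and -0.24 for F5, F10 and Emilin2. Without G the 3 markers had -0.26, 0.17 and -0.09. A gene could be named only if it was among those with the smallest p-values in the study. This comparison of sizes is therefore not independent of the choice of genes.

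The reference genes spread in the rhCDNF group as well. P2ry12, the ADP receptor of resting microglia, measured 131, 122, 122, 161 and 151 CPM in the saline libraries, and 242, 129, 159, 302 and 188 CPM in the rhCDNF libraries. Libraries K, G and L lay above every saline library, and H and J inside the saline range. The log2 fold change was 0.57 (SE 0.195, edgeR p = 0.013, adjusted p = 0.371, exact permutation p = 0.0635), and 0.50 without G.

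Apoe, which encodes a lipid carrier, measured 20970.3, 20354.5, 22161, 21321 and 22638 CPM in the saline libraries, and 10768, 19158, 16414, 19056 and 16778 CPM in the rhCDNF libraries. Its groups did not overlap. The log2 fold change was -0.39 (SE 0.143, edgeR p = 0.0195, adjusted p = 0.371, exact permutation p = 0.00794), and -0.27 without G. That permutation p is the smallest that 5 against 5 libraries can give. Groups without overlap were found for 119 higher and 154 lower genes of the 12199 tested.

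Library G placed the 3 markers on opposite sides. Against the saline mean it held 0.431 times the F5 level, 0.469 times the Emilin2 level and 0.501 times the Apoe level, but 3.27 times the F10 level and 1.76 times the P2ry12 level. The gap to the nearest other library was 0.67 on the log2 scale for F5, 0.86 for F10 and 0.93 for Emilin2. Library K was high for both P2ry12 and F10, but held 249 CPM of Emilin2 and 149 CPM of F5, between the other rhCDNF libraries.

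**Figure D2:**
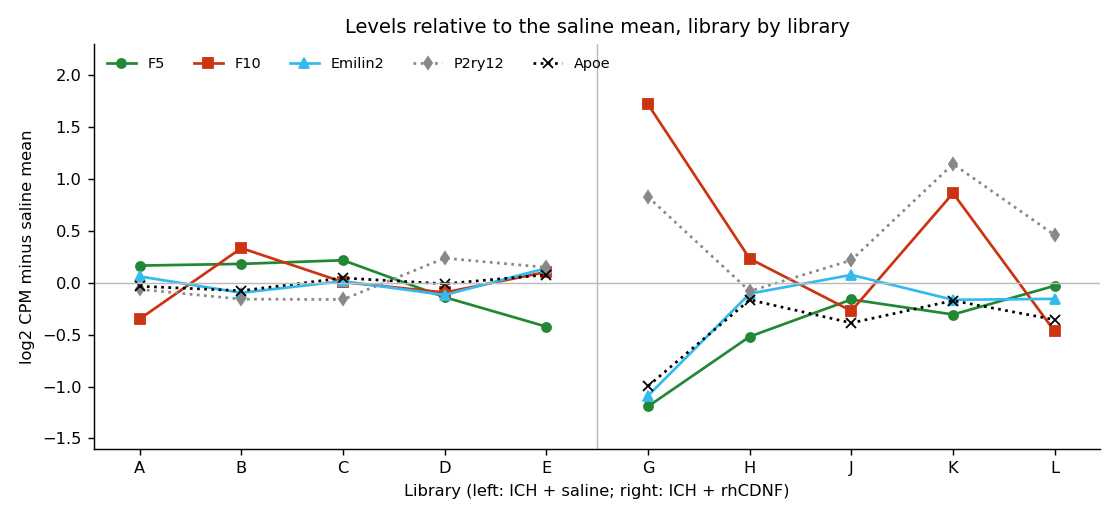
log2 CPM of each gene minus its mean over the 5 saline libraries, for each library, with saline on the left and rhCDNF on the right of the grey line. F5, Emilin2 and Apoe are lowest in library G, where F10 is highest, and F10 and P2ry12 are both high in K.

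Ratios within a library leave out its depth and scaling. F10 gave 3.21 to 8.76 counts per 100 counts of Emilin2 in 9 libraries, and 30.2 in G. The highest of the 9 was again K, and the other 8 reached at most 5.78. F5 gave 44.7 to 80.1 counts per 100 counts of Emilin2 in those 9 libraries and 61.5 in G. F5 and Emilin2 were thus low in G in a ratio inside the range of the other libraries, and F10 was not.

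Whether the 3 markers moved together was asked over the 10 libraries on log2 CPM, as part of 9 correlations with p-values adjusted over all 9. F5 and Emilin2 had a Pearson r of 0.77 (permutation p = 0.046, adjusted p = 0.0828) and a Spearman rho of 0.30 (permutation p = 0.407). The sign was negative for F10 with both. With F5 its r was -0.77 (permutation p = 0.0181, adjusted p = 0.0621) and rho -0.49 (permutation p = 0.156). With Emilin2 its r was -0.83 (permutation p = 0.0177, adjusted p = 0.0621) and rho -0.42 (permutation p = 0.231). None of these passed the adjusted threshold.

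These 3 relations rested largely on 1 library. Without G, r was 0.04 for F5 with Emilin2, -0.36 for F5 with F10 and -0.35 for F10 with Emilin2. With the 2 libraries farthest from the median of the x axis left out, r was -0.10 for F5 with Emilin2 and -0.32 for F5 with F10 (both without G and H), and -0.05 for F10 with Emilin2 (without G and K; x axis F10). So over these 10 libraries the 3 markers did not give 1 common order. Leaving out saline library E, in which F5 was the lowest and Emilin2 the highest of its group, took r to 0.87 for F5 with Emilin2, -0.80 for F5 with F10 and -0.85 for F10 with Emilin2, each at an adjusted permutation p of 0.0483. Leaving out L took F10 with Emilin2 to -0.90 (adjusted permutation p = 0.0331).

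With P2ry12, F5 had an r of -0.56 (permutation p = 0.0909, adjusted p = 0.102) and a rho of -0.54 (permutation p = 0.113). Emilin2 had an r of -0.56 (permutation p = 0.106, adjusted p = 0.106) and a rho of -0.62 (permutation p = 0.0608). F10 had an r of 0.60 (permutation p = 0.0657, adjusted p = 0.0953) and a rho of 0.14 (permutation p = 0.707). The sign was negative for F5 and Emilin2 and positive for F10, and none passed the threshold. Without G these r were -0.37, -0.44 and 0.43. Libraries G and K were the 2 farthest from the P2ry12 median, and with both left out r was -0.28 for F5, -0.18 for Emilin2 and -0.66 for F10, a change of sign for F10.

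With Apoe the signs were the opposite. F5 had an r of 0.74 (permutation p = 0.0348, adjusted p = 0.0783) and a rho of 0.41 (permutation p = 0.248). Emilin2 had the highest r of the 9 pairs, 0.88 (permutation p = 0.0207, adjusted p = 0.0621), with a rho of 0.55 (permutation p = 0.106). F10 had an r of -0.64 (permutation p = 0.0741, adjusted p = 0.0953) and a rho of -0.16 (permutation p = 0.655). Without G these r were 0.14, 0.32 and 0.23, so that of F10 changed sign. Without G and J, the 2 farthest on the Apoe axis, r was 0.12 for F5, 0.75 for Emilin2 (permutation p = 0.0282, adjusted p = 0.254) and 0.07 for F10. Without J alone, Emilin2 with Apoe reached 0.96 (adjusted permutation p = 0.00583), and without E alone F5 with Apoe reached 0.85 (adjusted permutation p = 0.0483).

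**Figure D3:**
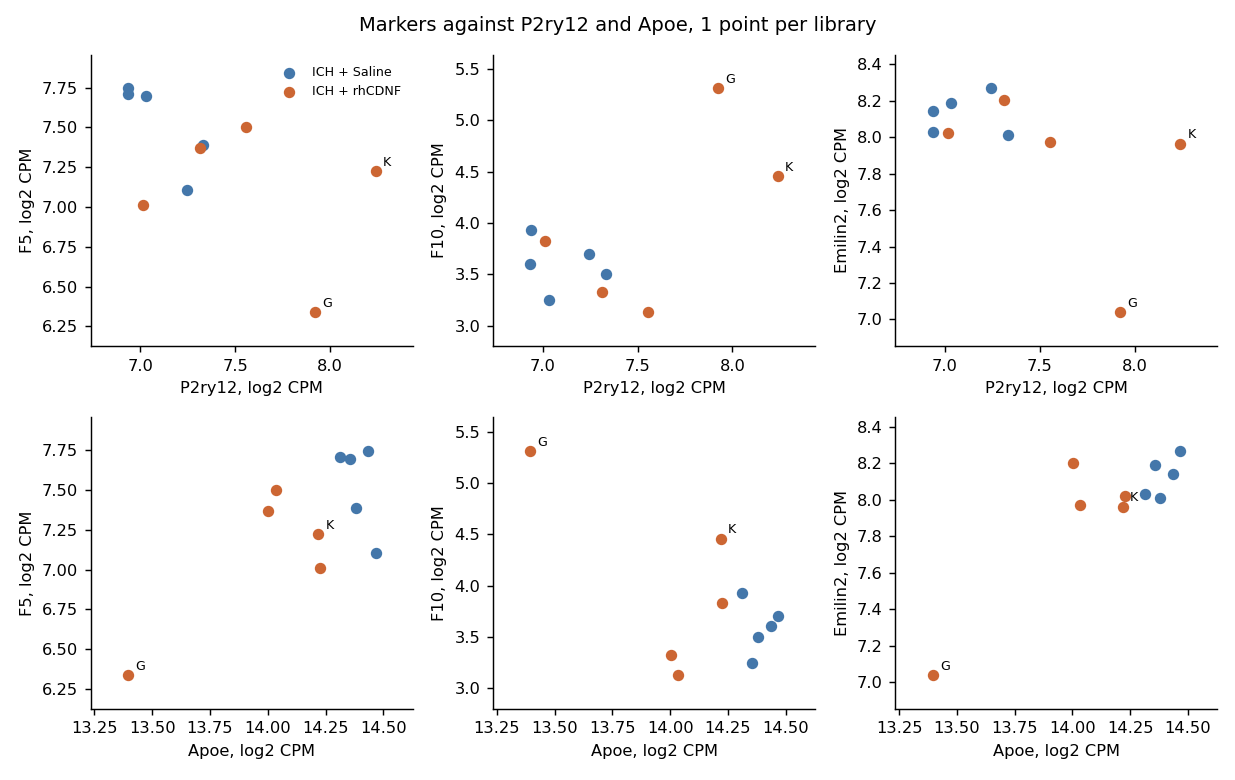
log2 CPM of F5, F10 and Emilin2 against that of P2ry12 (top) and Apoe (bottom), with 1 point per library (blue, ICH + Saline; orange, ICH + rhCDNF) and libraries G and K named. Library G lies apart in every panel, and the other 9 libraries give an r between -0.44 and 0.43.

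Within a group there were 5 libraries, and the order of the libraries is given there in place of a coefficient for each group. In the saline group, from high to low, F5 ran C, B, A, D, E, and P2ry12 ran D, E, A, B, C. The libraries highest in P2ry12, D and E, were thus the lowest in F5. Emilin2 ran E, A, C, B, D and Apoe E, C, D, A, B, with the same library first. F10 ran B, E, C, D, A. Its first library, B, was the last for Apoe, and the remaining libraries ran E, C, D, A for both genes.

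In the rhCDNF group, F5 ran L, J, K, H, G and Emilin2 ran J, H, L, K, G. Apoe ran H, K, L, J, G. All 3 ended with G, but Emilin2 began with J, which was next to last for Apoe. F10 ran G, K, H, J, L and P2ry12 ran K, G, L, J, H. The same libraries, G and K, led both, but the rest ran in reversed order. Library H, the lowest for P2ry12, was next to last for F5 and next to first for Emilin2. The library lowest for F10, L, was the highest for F5.

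After each gene's group mean had been taken away, r over the 10 libraries was 0.71 for F5 with Emilin2, -0.75 for F5 with F10 and -0.81 for F10 with Emilin2. It was -0.34, -0.40 and 0.53 for F5, Emilin2 and F10 with P2ry12, and 0.60, 0.89 and -0.60 with Apoe. The signs were those of the values before the group means were taken away, and none passed the adjusted threshold (adjusted permutation p from 0.195 to 0.502). Without G, a calculation added after the data were seen, the same deviations gave an r of -0.20 for F5 with Emilin2, -0.35 for F5 with F10 and -0.33 for F10 with Emilin2. They gave -0.13, -0.29 and 0.45 for F5, Emilin2 and F10 with P2ry12, and -0.66, -0.07 and 0.64 with Apoe, so all 3 signs with Apoe and that of F5 with Emilin2 were the opposite without G (adjusted permutation p from 0.463 to 0.893 over the 9 pairs).

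**Figure D4:**
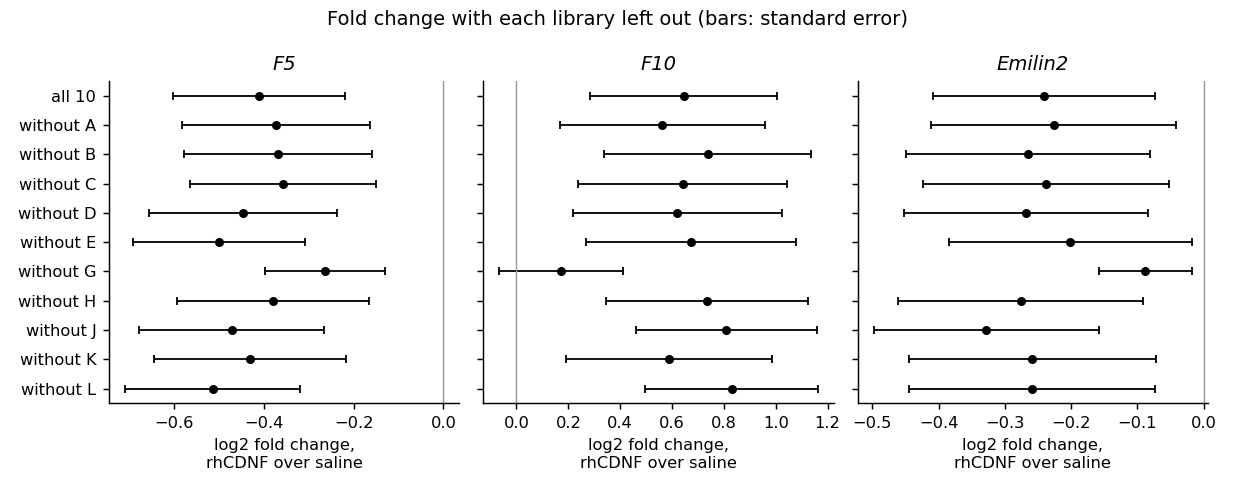
log2 fold change of rhCDNF over saline for F5, F10 and Emilin2 by edgeR, with all 10 libraries and with each library left out in turn (points; bars, standard error). The values run from -0.51 to -0.26 for F5, 0.17 to 0.83 for F10 and -0.33 to -0.09 for Emilin2, and the value nearest 0 is in each case the one without G.

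Each marker had its own nearest genes, taken as the 5 with the highest Pearson r over the 10 libraries among 777 named genes that passed the filter. They were chosen for that r, so the r and the libraries in which these genes stood high or low are a description and were not tested. Names were available only for genes with the smallest p-values in the study. For F5 these were Serpinb8, an intracellular inhibitor of serine proteases (r 0.98, and 0.97 without G), Scd2, a fatty acid desaturase (0.98 and 0.96), the actin-binding Tagln2 (0.96 and 0.94), Calu, a calcium-binding protein of the endoplasmic reticulum (0.96 and 0.94), and Spp1, which encodes osteopontin (0.96 and 0.88). These values held without G. Serpinb8 measured 62.0 to 82.4 CPM in the saline libraries, 35.04 CPM in G and 57.7 to 69.9 CPM in the other rhCDNF libraries.

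For F10 the nearest were Epsti1 and Mx2, both induced by interferon (r 0.98 and 0.97, and 0.95 and 0.96 without G), the complement component C3 (0.96 and 0.89), Ifi27l2b, which belongs to an interferon-inducible family (0.96 and 0.89), and Tnfsf9, the ligand of 4-1BB (0.96 and 0.88). Mx2 measured 11.3 to 38.1 CPM in the saline libraries, 142 CPM in G and 73.6 CPM in K. C3 measured 341 to 549.7 CPM in the saline libraries, 1977 CPM in G and 935 CPM in K. All 5 were above every saline library in G and in K, as F10 was, and genes chosen for a high r with F10 tend to share its highest libraries. One identifier without a name had an r above that of Epsti1.

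For Emilin2 the nearest were Ano6, a phospholipid scramblase (r 0.97, and 0.68 without G), the lactonase Pon3 (0.97 and 0.64), the membrane protein gene Tmem37 (0.97 and 0.77), the cell adhesion molecule Nrcam (0.96 and 0.77) and the bicarbonate transporter Slc4a5 (0.96 and 0.88). Ano6 measured 225 to 239 CPM in the saline libraries, 122 CPM in G and 192 to 229 CPM in the other rhCDNF libraries. Their r with Emilin2 depended on G more than those of the genes nearest F5 or F10, and 8 identifiers without a name had an r above that of Ano6.

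**Figure D5:**
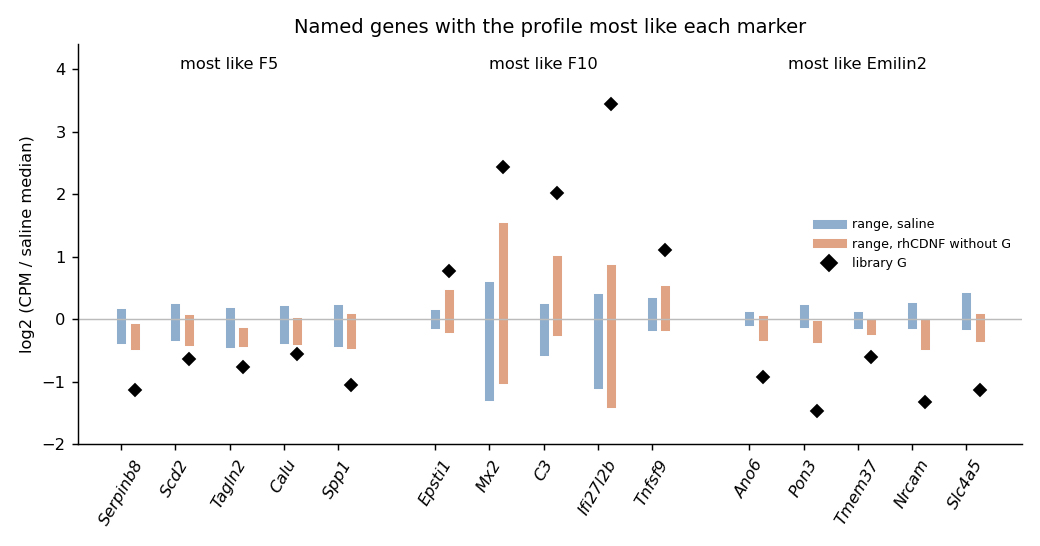
log2 of CPM over the saline median for the 5 named genes most like F5, F10 and Emilin2, as the range of the saline libraries (blue), the range of the rhCDNF libraries without G (orange) and library G (diamond). The genes nearest F10 lie above the saline range in G (Mx2, 142 CPM against 11.3 to 38.1), and those nearest F5 and Emilin2 lie below it.

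The other genes of the lists could be counted only where a name was available, which was so only for genes in the first rows of the study's table, those with the smallest p-values. Counts and medians over these lists are therefore not independent of the comparison, and none of their genes was called at an adjusted p under 0.05 by edgeR. Of 12 further monocyte and macrophage genes 5 had a name, 4 with a lower and 1 with a higher value after rhCDNF, with a median log2 fold change of -0.30 (0.00 over all genes tested). Without G the counts were the same and the median was -0.18. List values without a library were added after the data were seen. Over all 12199 genes tested, library G was the lowest in 2738 and the highest in 2542. A name also required a profile over the libraries distinct from its rivals. How far this favoured genes with extreme values in G was not tested. The lysozyme gene Lyz2 (1306 CPM in G, 1870.2 to 2739 CPM in the saline libraries), Thbs1, which encodes thrombospondin 1 (521 against 1415 to 2151 CPM), and Arg1, which encodes arginase 1 (51.7 against 77.3 to 137 CPM), were all lowest in G, as F5 and Emilin2 were. Plac8, a gene abundant in blood monocytes, ran the other way, as F10 did, with 85.3 CPM in G and 11.3 to 18.5 CPM in the other 9 libraries. Its log2 fold change was 1.06 (SE 0.506, edgeR adjusted p = 0.415), and 0.09 without G. Thbs1 and Ms4a7, the latter named after its value was seen, had an unadjusted edgeR p under 0.05 (0.0437 and 0.00874, with log2 fold changes of -0.56 and -0.58, and of -0.38 and -0.49 without G). Of all genes tested, 12.4% met that cut. In the lists below, 4 of 8 homeostatic microglia and 4 of 5 disease-associated phagocyte genes with a name met it. So did 2 of 2 red cell and 1 of 6 coagulation genes, and none in the other lists. Ms4a7 was low throughout, at 2.05 to 4.86 CPM.

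Markers of other states were high or low in the same libraries. Summed over the 8 homeostatic microglia genes with a name, of 11 listed, the level was 3139 to 3871 CPM in the saline and 3465 to 5559 CPM in the rhCDNF libraries, with 5007 CPM in G and the highest value in K. Csf1r, with a saline mean of 2412 CPM, made up most of this sum. All 8 had a higher value after rhCDNF, with a median log2 fold change of 0.42, and Csf1r, Cx3cr1 and Sall1 had 0.26, 0.30 and 0.68. Without G the median was 0.35 and these genes had 0.22, 0.17 and 0.47, and without K the median was 0.23. Summed over 5 of 8 disease-associated phagocyte genes, the level was 46394 to 53519 CPM in the saline and 24862 to 44318 CPM in the rhCDNF libraries. All 5 were lowest in G, as were 2738 of the 12199 genes tested. The median log2 fold change of the 5 was -0.31, and -0.21 without G. Apoe and Spp1, with saline means of 21489 and 19466 CPM, made up most of the sum of the 5. The part of these states in the values of F5, F10 and Emilin2 was not tested.

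Of the 8 neutrophil and 7 lymphocyte genes listed none had a name here, so those cells were not checked. The red cell genes Hba-a1 and Hbb, whose transcripts come from erythroid cells, summed to 1059.8 CPM in J and to 10.3 to 54.7 CPM in the other 9 libraries. F5, F10 and Emilin2 were inside or next to the saline range in J, at 165, 9.89 and 295 CPM. The astrocyte gene Slc1a2 lay between 0.622 and 2.80 CPM. Its log2 fold change was 0.62 (SE 0.368, edgeR adjusted p = 0.492), and 0.55 without G. The endothelial gene Vwf lay between 21.8 and 75.0 CPM. Its log2 fold change was 0.38 (SE 0.289, edgeR adjusted p = 0.573), and 0.27 without G.

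By pathway the markers did not share a direction. Of 27 coagulation genes 6 had a name, 3 higher and 3 lower after rhCDNF, with a median log2 fold change of 0.13, and of 0.06 without G. Plau, which encodes the urokinase plasminogen activator, had a log2 fold change of -0.19 (SE 0.115, edgeR adjusted p = 0.494) and -0.21 without G. Its receptor Plaur had -0.17 (SE 0.121, edgeR adjusted p = 0.553), with 89.4 CPM in G, and -0.06 without G. Pros1, which encodes the anticoagulant protein S, had 0.42 (SE 0.154, edgeR adjusted p = 0.371), and 0.31 without G. The protein C receptor gene Procr, named after its value was seen, measured 41.7 CPM in G and 3.29 to 16.0 CPM in the saline libraries. Its log2 fold change was 1.05 (SE 0.564, edgeR adjusted p = 0.457), and 0.27 without G. F5 and F10, which act in 1 complex, thus lay on opposite sides, as in the values above.

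Of the 5 genes of the EMILIN and multimerin family, 3 had a name. Emilin1, another matrix glycoprotein, had a log2 fold change of 0.26 (SE 0.168, edgeR adjusted p = 0.527) and Mmrn2, an endothelial matrix protein gene, 0.43 (SE 0.200, edgeR adjusted p = 0.402), and without G they had 0.30 and 0.33. The median over the 3 genes was 0.26, with 0.30 without G and 0.08 without K. Emilin1 and Mmrn2 were both highest in K, whereas Emilin2 was highest in E and lowest in G. Gda and Mki67, which the study listed beside these markers, had no name here and were not analysed.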

How the data were processed

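RNA was measured in CD11b+ cells of 10 libraries. Per the labels and methods, the authors depleted ribosomal RNA, made directional libraries, read them single-end, and trimmed, aligned and counted the reads on Rnor_6.0. The submitters' processing notes name Trimmomatic 0.36, STAR 2.5.3a, featureCounts of Subread 1.6.4 and DESeq2, and the methods name another STAR release and CLC Genomics Workbench. The deposited values are raw counts per Ensembl identifier. The columns carry library numbers and a running index instead of the sample titles, and were assigned to groups by the numbers' headings in the study's table (columns not used: 0).

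Names were tied by profile, against the first 1998 rows of that table. For 1904 of its genes and 13939 identifiers detected throughout, the spread (SD) of the log2 ratio between the table and CPM was taken across libraries. A name was used where gene and identifier each had the smallest spread with the other and any rival's was 1.5 times larger or more (789 names).

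Counts were tested in R 4.3.3 with edgeR 4.0.16 (filter by expression, TMM, quasi-likelihood test, Benjamini-Hochberg), with 12199 of 32883 identifiers kept. log2 CPM used a prior count of 2. DESeq2 1.42.0 was an alternative, as were other scaling, no filter and leaving out each library. Correlations over all 10 libraries, and those of deviations from group means, were tested two-sided with 100000 permutations, made within each group for the deviations. The other correlations with libraries left out were tested two-sided over all arrangements. Group differences of single genes were tested by all arrangements of the libraries. The scripts were tested on simulated data. Named genes were the markers, the reference genes, at most 4 genes of each list by mean CPM and the 5 nearest genes per marker. The members and lists were chosen with earlier results of these data known.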

Additional observations from a re-analysis of the deposited data

Results flagged for a closer look

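In 2 of the 10 sets of 5 libraries examined (5 genes in each group), 1 library lay far from the rest. Gaps and ranges were taken on log2 CPM, and the shares below hold for that scale. For Emilin2 in the rhCDNF group, library G (131 CPM) was the lowest. The gap to its nearest neighbour took up 0.794 of the group's range. For Apoe in the same group, G (10768 CPM) was again the lowest, and the gap above it took up 0.732. The critical value for 5 libraries is 0.71, and chance alone exceeds it in about 1 in 20 groups. Both values belong to the same library, so they are not separate observations.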

How the results depend on the processing

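The log2 fold changes of F5, F10, Emilin2, P2ry12 and Apoe kept their sign, and none passed an adjusted p of 0.05, with relative log expression scaling, DESeq2, no filter or any library left out. With 1 library left out they ran from -0.51 to -0.26 for F5, 0.17 to 0.83 for F10, -0.33 to -0.09 for Emilin2, 0.39 to 0.70 for P2ry12 and -0.45 to -0.27 for Apoe, and 0 genes were called each time. DESeq2 called 7 genes where edgeR called 0. The cause was not tested.

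With the 2 farthest libraries left out, r changed sign for F10 with P2ry12 (-0.66), F10 with Apoe (0.072) and F5 with Emilin2 (-0.10). With 1 library left out, r ran from -0.73 to -0.37 for F5 with P2ry12, 0.14 to 0.85 for F5 with Apoe, 0.43 to 0.71 for F10 with P2ry12, -0.76 to 0.23 for F10 with Apoe, -0.77 to -0.44 for Emilin2 with P2ry12, 0.32 to 0.96 for Emilin2 with Apoe, -0.85 to -0.36 for F5 with F10, 0.044 to 0.87 for F5 with Emilin2 and -0.90 to -0.35 for F10 with Emilin2. As deviations from group means without G, added after the data were seen, r changed sign for F5 with Apoe (-0.66), F10 with Apoe (0.64), Emilin2 with Apoe (-0.067) and F5 with Emilin2 (-0.20). On a linear CPM scale all 9 kept their sign and none passed.

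No paired analysis was possible because the columns carry a library number and an index that runs on through both groups, whereas the titles number the samples anew in each group, so that no rhCDNF column shows its title's number. Depth limits F10 most, with 123 to 678 counts per library. Names rest on profiles and each group on 5 libraries, and library G was the 1 whose absence moved each marker's fold change nearest to 0.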
